A study of Mus musculus with 12 samples.

Results

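Ephrins, Eph receptors, semaphorins, plexins and neuropilins are encoded by 53 of the 55141 genes counted in mouse gastruloids, which are cultured stem cell aggregates with a head-to-tail axis. The 53 genes were picked by their symbols and comprise 8 ephrins, 14 Eph receptors, 20 semaphorins, 9 plexins and 2 neuropilins. Gastruloids from 300 mouse embryonic stem cells of the 129/SVEV background received 3 µM CHIR99021, a GSK3 inhibitor that activates Wnt signalling, for 24 h from 48 h after seeding. They were embedded at 72 h or at 96 h in a dextran-based hydrogel, at a concentration of either 1.0 mM or else 1.5 mM, released with dextranase and collected at 120 h, which gave 4 groups of 3 replicates with about 30 gastruloids pooled in each. All 4 groups shared the CHIR99021 pulse, the embedding and the release, and differ in the time of embedding and the concentration of the gel. As all were collected at 120 h, the groups embedded at 72 h were in the gel for longer than those embedded at 96 h. Time of embedding and time spent in the gel therefore cannot be told apart, and no group without a gel is compared. The comparisons ask how the time of embedding, and the concentration of the gel at each time, bear on the expression of these genes.

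Ephrins are membrane-bound ligands that signal through Eph receptor tyrosine kinases on the neighbouring cell and also backwards into the cell that carries them. A-class ephrins are held by a lipid anchor and bind mainly EphA receptors, whereas B-class ephrins span the membrane and bind mainly EphB receptors, and both classes are known for the repulsion that keeps somites, hindbrain segments and vessel walls apart. Semaphorins are secreted or membrane-bound guidance cues whose main receptors are the plexins, and the secreted class 3 members mostly act through a neuropilin that pairs with a class A plexin.

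Library totals ran from 23011791 to 27609422 counts. The gene CT010467.1 made up 6.12% of the counts of 72 h, 1.5 mM replicate 1 and 4.21% of those of 96 h, 1.5 mM replicate 2, and 0.207% to 2.67% in the other 10 libraries, and values without these 2 libraries, an alternative chosen after seeing the data, are given where a call changes. Markers of primitive blood were nearly absent, with *Hbb-y* at 0 in all 12 libraries, and the posterior markers *Cdx4* and *Wnt3a*, the presomitic marker *Msgn1* and the neurogenic factors *Neurog1*, *Neurog2* and *Neurod4* had means below 0.1 CPM. Levels within a gene are given as CPM, counts scaled to a common library size with the TMM method, and levels between genes as FPKM, which also divides by transcript length.

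Most of these genes were expressed. A mean FPKM of at least 1 was reached by 39 of the 53 genes and of at least 10 by 16 of them. Every ephrin passed an FPKM of 1, as did 8 Eph receptors, 14 semaphorins, 7 plexins and both neuropilins. Summed over its members, the mean FPKM came to 133 for the 8 ephrins, 86.3 for the 14 Eph receptors, 96.1 for the 20 semaphorins and 68.5 for the 9 plexins.

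**Figure D1:**
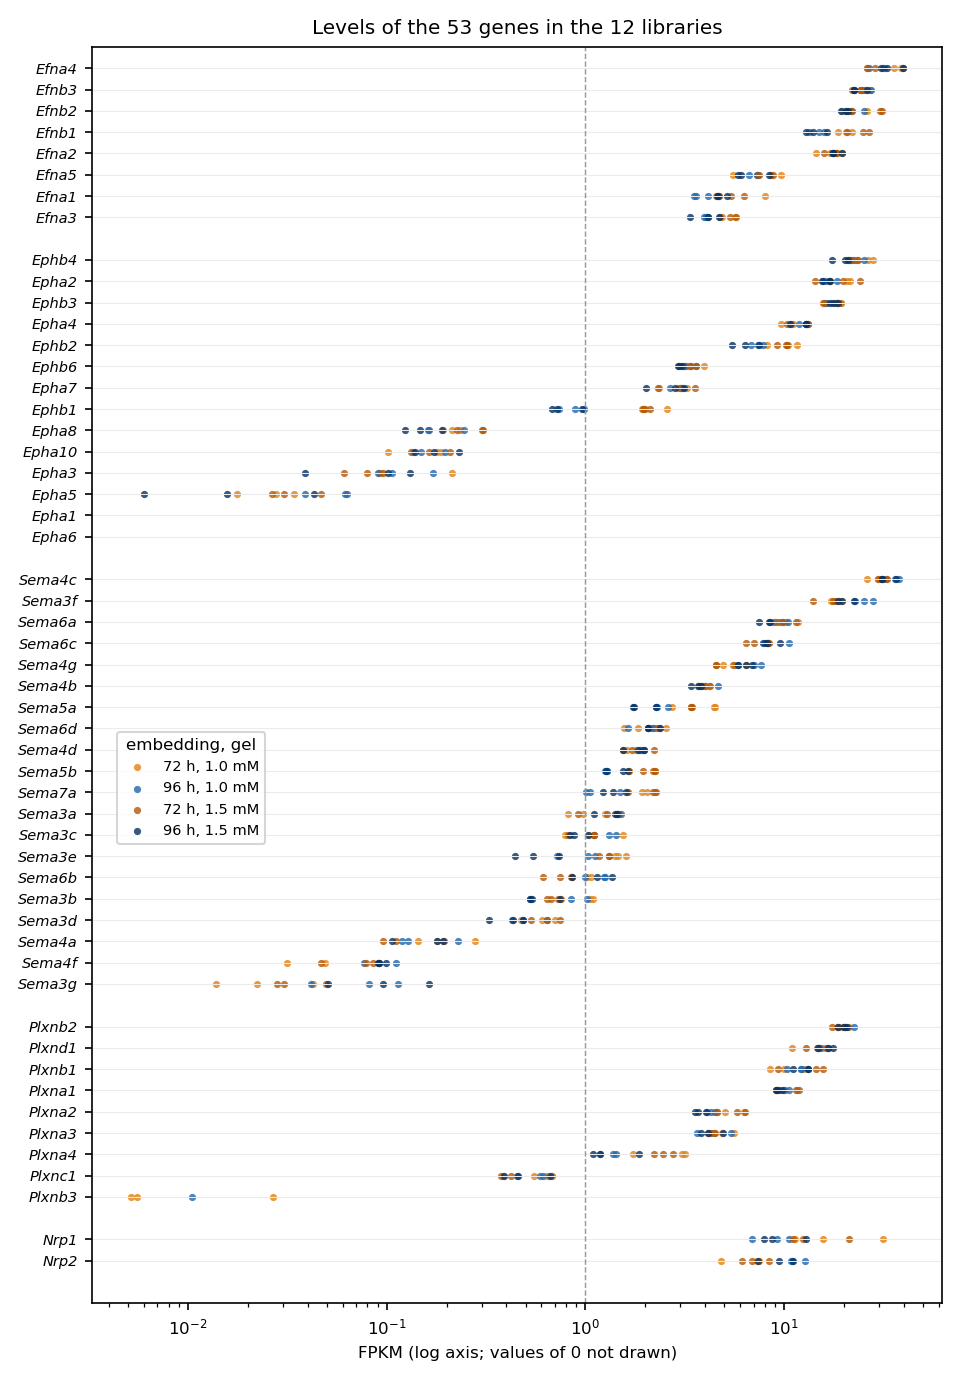
FPKM of each of the 53 genes (rows, by family and falling mean) in the 12 libraries (points, coloured by group) on a log axis, with a dashed line at an FPKM of 1. Values of 0, which include all of *Epha1* and *Epha6*, are not drawn. The ephrins all sit above 1, whereas the Eph receptors split into 8 genes with means above it and 6 below, where *Epha1* is counted below by its listed 0.

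Among the ligands of Eph receptors, *Efna4* and *Efnb3*, a lipid-anchored and a membrane-spanning ephrin, had the highest levels, with 32.3 ± 5.07 and 24.5 ± 1.88 FPKM (SD, n = 12). *Efnb2*, an artery marker, followed at 23.2 ± 4.01 FPKM, *Efnb1*, an X-linked ephrin, at 18.3 ± 4.58 FPKM and *Efna2* at 17.6 ± 1.4 FPKM. The ranges of neighbours in this order overlapped over the 12 libraries, so the order within these 5 is not separated by their spread. *Efna2* and the next ephrin, *Efna5* at 7.4 ± 1.27 FPKM, did not overlap, and *Efna1* and *Efna3* were lowest at 4.94 ± 1.23 and 4.56 ± 0.741 FPKM.

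Of their receptors, *Ephb4*, the vein-side partner of ephrin-B2, led with 22.6 ± 2.87 FPKM, ahead of *Epha2* with 18.0 ± 2.88 and *Ephb3* with 17.4 ± 1.18 FPKM (SD, n = 12), whose ranges overlapped from one to the next. *Epha4*, which acts at somite and hindbrain boundaries, followed at 11.8 ± 1.27 FPKM and did not overlap with *Ephb3*. *Ephb2* at 8.42 ± 1.89 FPKM overlapped with *Epha4* and stood apart from *Ephb6*, a receptor that lacks kinase activity, at 3.29 ± 0.303 FPKM. The lowest members were *Epha5*, with 1 to 17 counts per library, and *Epha6*, with 0 counts in every library, where 0 counts allow up to 3 counts per library. *Epha1* was listed at 0 FPKM in every library although it held 85 to 189 counts, so its FPKM was not used. Its exons share 236 bases, 6.01% of their length, with *Zyx* on the opposite strand, which had a mean of 108 CPM against 5.16 CPM for *Epha1*, and the strand setting of the counts is not given in the sources used here.

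*Sema4c*, a membrane-bound class 4 semaphorin, and *Sema3f*, a secreted ligand of neuropilin-2, had the highest semaphorin levels, 32.1 ± 3.34 and 20.1 ± 3.84 FPKM (SD, n = 12). Both stood above the third semaphorin, *Sema6a* at 9.6 ± 1.25 FPKM, and *Sema3f* did not overlap with it. Most other secreted class 3 genes were low, at 1.26 FPKM for *Sema3a*, 1.08 for *Sema3c*, 1.07 for *Sema3e*, 0.761 for *Sema3b* and 0.541 for *Sema3d*, and *Sema3g* had 2 to 24 counts per library. Plexin levels were headed by *Plxnb2*, a receptor of class 4 semaphorins, at 19.8 ± 1.34 FPKM and *Plxnd1*, the direct receptor of *Sema3e*, at 15.0 ± 1.76 FPKM, and *Plxnb3* had 0 to 5 counts per library.

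The genes differed in how much they varied over the 12 libraries. Among the 39 genes with a mean FPKM of at least 1, the ratio of the highest to the lowest CPM was 4.45 for *Nrp1*, 3.68 for *Ephb1*, 3.15 for *Sema3e*, 2.92 for *Plxna4* and 2.65 for *Sema5a*. It was only 1.19 for *Plxnb2*, 1.21 for *Ephb3*, 1.22 for *Efna4* and 1.23 for *Efnb3*. The 2 most expressed ephrins and the most expressed plexin were thus among the 4 least variable of these genes.

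Embedding time separated a minority of the family, and mostly in the direction of higher levels after embedding at 72 h. Differences are given as log2 fold changes of 72 h over 96 h with their standard error (SE), and a gene is called DE where edgeR's quasi-likelihood test gave an adjusted p under 0.05 with a log2 fold change beyond 1 in either direction. In 1.0 mM gels 3 of the 49 genes tested were DE, *Ephb1*, *Nrp1* and *Plxna4*, all higher after embedding at 72 h, against 4.3% of all 15763 genes, 2.61% for higher alone. In 1.5 mM gels 2 of 49 were DE, *Ephb1* and *Sema3e*, both higher, against 3.18% of 15683 genes, 1.61% for higher alone. Without a threshold on the fold, 11 genes passed an adjusted p of 0.05 in 1.0 mM gels, 9 higher and 2 lower, against 9.24% of all genes, 5.97% higher and 3.27% lower. In 1.5 mM gels 15 did so, 13 higher and 2 lower, against 19.3%, 10.4% higher and 8.98% lower. The 3 libraries of one time did not overlap with the 3 of the other for 17 of the 49 genes in 1.0 mM gels, against 28.4% of all genes, and for 22 in 1.5 mM gels, against 39.9%. The median log2 fold change over the 49 genes was 0.01 in 1.0 mM gels and 0.10 in 1.5 mM gels, and −0.01 over all genes in both. As whole gastruloids were pooled, fewer cells of a type and less RNA per cell cannot be told apart in any of these values.

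**Figure D2:**
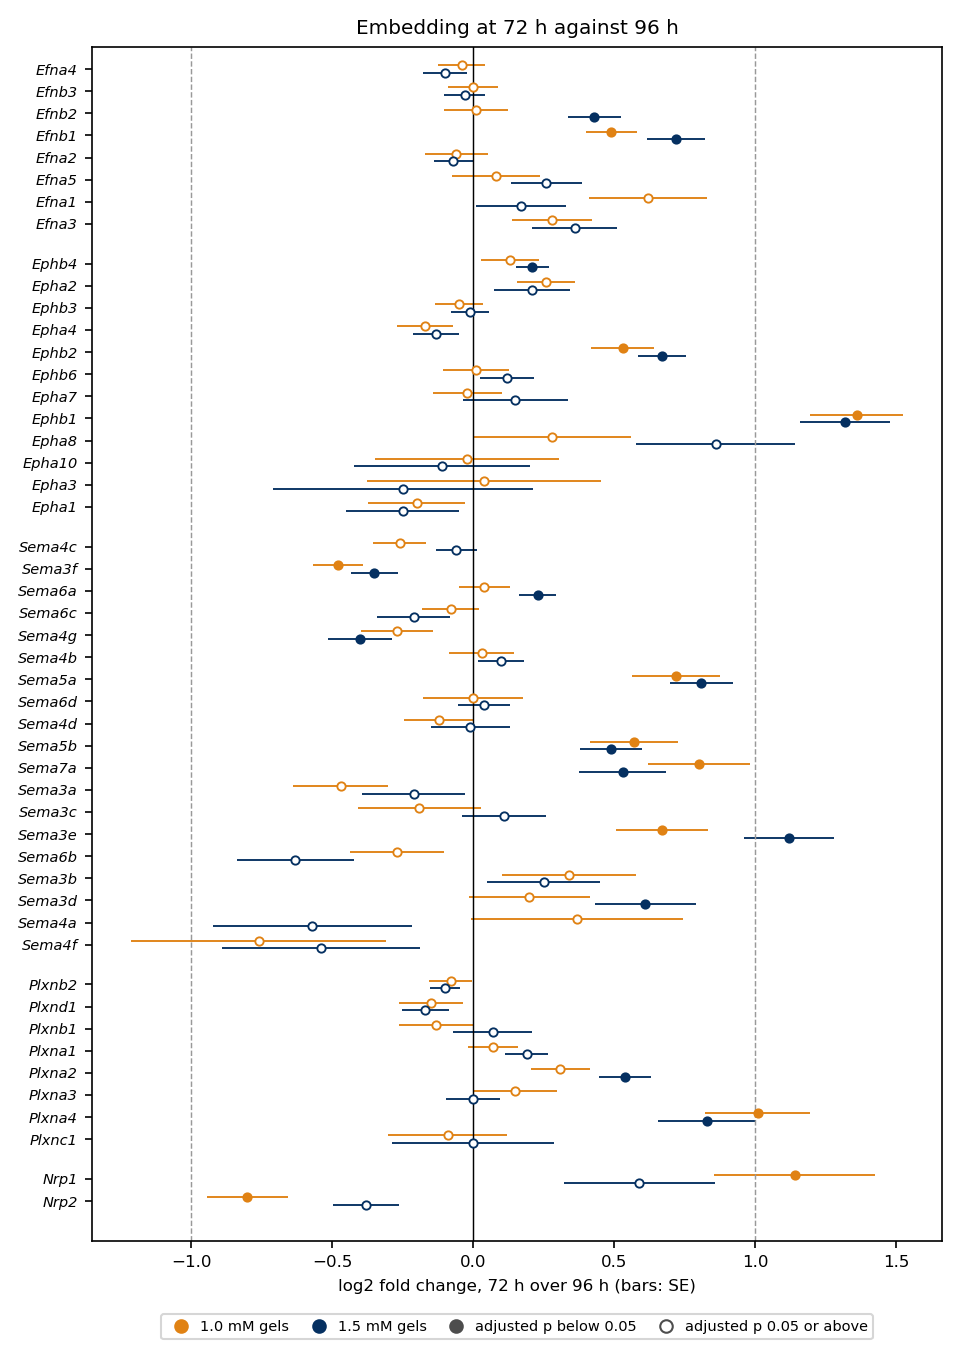
Log2 fold change of 72 h over 96 h for each gene tested (rows), in 1.0 mM gels (orange) and 1.5 mM gels (blue), with bars for the SE. Filled points passed an adjusted p of 0.05 and dashed lines mark a log2 fold change of 1 in either direction. *Ephb1* lies beyond 1 in both gels and *Nrp2* is the lowest in 1.0 mM gels at −0.80.

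The comparisons in the 2 gels share no library. The sign of the fold change was the same in both for 40 of the 49 genes, and for all 17 genes that passed an adjusted p of 0.05 in either gel. Over the 49 genes the fold changes in the 2 gels had a Pearson's r of 0.81 and a Spearman's rho of 0.816, given as a description since genes of a library are not independent. In 11 genes the 3 libraries of 72 h did not overlap with the 3 of 96 h in either gel and differed in the same direction in both, 9 of them higher and 2 lower after 72 h, and 16% of all 16388 genes tested did so. The 9 genes past an adjusted p of 0.05 in both gels were *Ephb1*, *Ephb2*, *Efnb1*, *Plxna4*, *Sema3e*, *Sema5a*, *Sema5b* and *Sema7a*, which were higher after embedding at 72 h, and *Sema3f*, which was lower. The share of all genes past this threshold in both gels was not computed. Nor were the agreement in sign and the correlation between gels over all genes. These values are therefore not read as particular to the families.

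Among the Eph receptors, *Ephb1*, a receptor tyrosine kinase for B-class ephrins on mm10 chr9:101922128-102354693 (minus strand), showed the largest difference. The 250 bases before its start site (GRCm38.p6, the build also called mm10, chr9:102354694-102354943, minus strand, RefSeq) are shown because this gene carries the largest fold change of the family in both gels. They were searched on both strands for a TCF/LEF motif (CTTTGAT) and a T-box motif (TCACACC), read by the factors of Wnt signalling and by Brachyury and its relatives. Neither occurs in this window, which has a GC content of 54.0% and 10 CpG sites.
Ephb1: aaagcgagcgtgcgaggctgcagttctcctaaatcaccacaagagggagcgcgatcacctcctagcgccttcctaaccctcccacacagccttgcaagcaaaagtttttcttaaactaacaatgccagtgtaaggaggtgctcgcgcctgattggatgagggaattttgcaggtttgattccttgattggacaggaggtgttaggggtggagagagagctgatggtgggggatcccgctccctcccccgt

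In 1.0 mM gels, replicates 1, 2 and 3 gave 14.9, 11.8 and 11.4 CPM of *Ephb1* after embedding at 72 h against 5.4, 5.29 and 4.26 CPM after 96 h. The 1.5 mM gels had 13.5, 11.7 and 11.0 CPM against 5.69, 4.73 and 4.05 CPM. All 6 libraries of 72 h stood above all 6 of 96 h, with no overlap within or between gels, which held for 11.8% of all genes. *Ephb1* was 2.56-fold higher after embedding at 72 h in 1.0 mM gels (1.36 on the log2 scale, SE 0.166, adjusted p = 0.000663) and 2.5-fold higher in 1.5 mM gels (1.32, SE 0.16, adjusted p = 0.00235). The fold did not differ detectably between the gels (interaction −0.03, SE 0.23, unadjusted p = 0.911).

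*Ephb2*, another EphB receptor (chr4:136647539-136835988, minus strand), was higher after embedding at 72 h in both gels. Its replicates 1, 2 and 3 gave 102, 74.3 and 96.6 CPM after embedding at 72 h and 66.2, 59.4 and 63.5 CPM after 96 h in 1.0 mM gels, and 91.6, 97.8 and 95.6 against 67.7, 55.3 and 55.5 CPM in 1.5 mM gels. The 2 embedding times did not overlap, although replicate 2 of 72 h in 1.0 mM gels lay nearest to those of 96 h. *Ephb2* was 1.45-fold higher in 1.0 mM gels (log2 0.53, SE 0.112, adjusted p = 0.013) and 1.59-fold higher in 1.5 mM gels (0.67, SE 0.0862, adjusted p = 0.00271). Without 96 h replicate 2 or 3 the adjusted p in 1.0 mM gels was 0.0657 or 0.0532. *Ephb4* was 1.16-fold higher in 1.5 mM gels (log2 0.21, SE 0.0587, adjusted p = 0.0368) with a log2 fold change of 0.13 in 1.0 mM gels (adjusted p = 0.494). The call of *Ephb4* in 1.5 mM gels was lost on leaving out any library but 72 h replicate 1, with adjusted p-values from 0.0624 to 0.149. Without both libraries rich in CT010467.1 its adjusted p was 0.0932 there and 0.158 in the pooled fit.

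Of 5 EphB receptors, 2 passed an adjusted p of 0.05 in 1.0 mM gels and 3 in 1.5 mM gels, and of 7 EphA receptors tested none did in either, against 9.24% and 19.3% of all genes. Across both gels 3 of 5 and 1 of 7 passed, against 31.1%, and a difference between the classes was not tested. *Epha2*, the most expressed EphA receptor, differed by 0.26 on the log2 scale (SE 0.103, adjusted p = 0.149) in 1.0 mM gels and 0.21 (SE 0.135, adjusted p = 0.31) in 1.5 mM gels, and its libraries of 72 h and 96 h overlapped in both. Without the 2 libraries rich in CT010467.1 *Epha2* passed, at 0.42 in 1.5 mM gels (SE 0.0845, adjusted p = 0.00989) and 0.32 in the pooled fit (SE 0.078, adjusted p = 0.0107). *Epha8*, a weakly expressed receptor at 0.778 to 2.18 CPM and outside the rule for named genes, passed when both gels were pooled and in neither gel alone (0.57, SE 0.199, adjusted p = 0.0411), and its adjusted p rose to between 0.0521 and 0.101 on leaving out any of 8 of the 12 libraries and was 0.157 without both libraries rich in CT010467.1.

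Of the 3 B-class ephrins, 1 passed an adjusted p of 0.05 in 1.0 mM gels and 2 in 1.5 mM gels, and of the 5 A-class ephrins none passed in either, against 9.24% and 19.3% of all genes. Across both gels 1 of each class passed, *Efnb1* and *Efna3*, and among the A-class genes that did not, *Efna1* had an unadjusted p of 0.0131 and an adjusted p of 0.0972 in 1.0 mM gels. *Efnb1* (chrX:99136130-99148991, plus strand) encodes ephrin-B1. It gave 84.7, 80.2 and 93.2 CPM in replicates 1, 2 and 3 after embedding at 72 h and 65.5, 62.8 and 56.0 CPM after 96 h in 1.0 mM gels, and 94.1, 106 and 110 against 69.6, 64.9 and 53.3 CPM in 1.5 mM gels. Every library of 72 h exceeded every library of 96 h. The difference was 1.41-fold in 1.0 mM gels (log2 0.49, SE 0.0898, adjusted p = 0.00619) and 1.64-fold in 1.5 mM gels (0.72, SE 0.102, adjusted p = 0.00357).

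*Efnb2*, encoding ephrin-B2, passed in one gel. In 1.0 mM gels it stood at 131, 122 and 161 CPM after embedding at 72 h and at 133, 125 and 156 CPM after 96 h, which overlapped (log2 0.01, SE 0.114, adjusted p = 0.982). In 1.5 mM gels it stood at 145, 187 and 187 CPM against 127, 129 and 128 CPM, with no overlap (0.43, SE 0.0929, adjusted p = 0.0143), and without replicate 2 or 3 of either time the adjusted p was 0.0534 to 0.0569. The difference between the gels had an interaction of 0.43 (SE 0.162), with the smallest unadjusted p of any of the 50 genes tested (0.018) and an adjusted p of 0.953, so it is not shown to differ between gels. *Efna4* and *Efnb3*, the 2 most expressed ephrins, had log2 fold changes of −0.04 and −0.00 in 1.0 mM gels and of −0.10 and −0.03 in 1.5 mM gels, with adjusted p-values from 0.397 to 0.99.

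**Figure D3:**
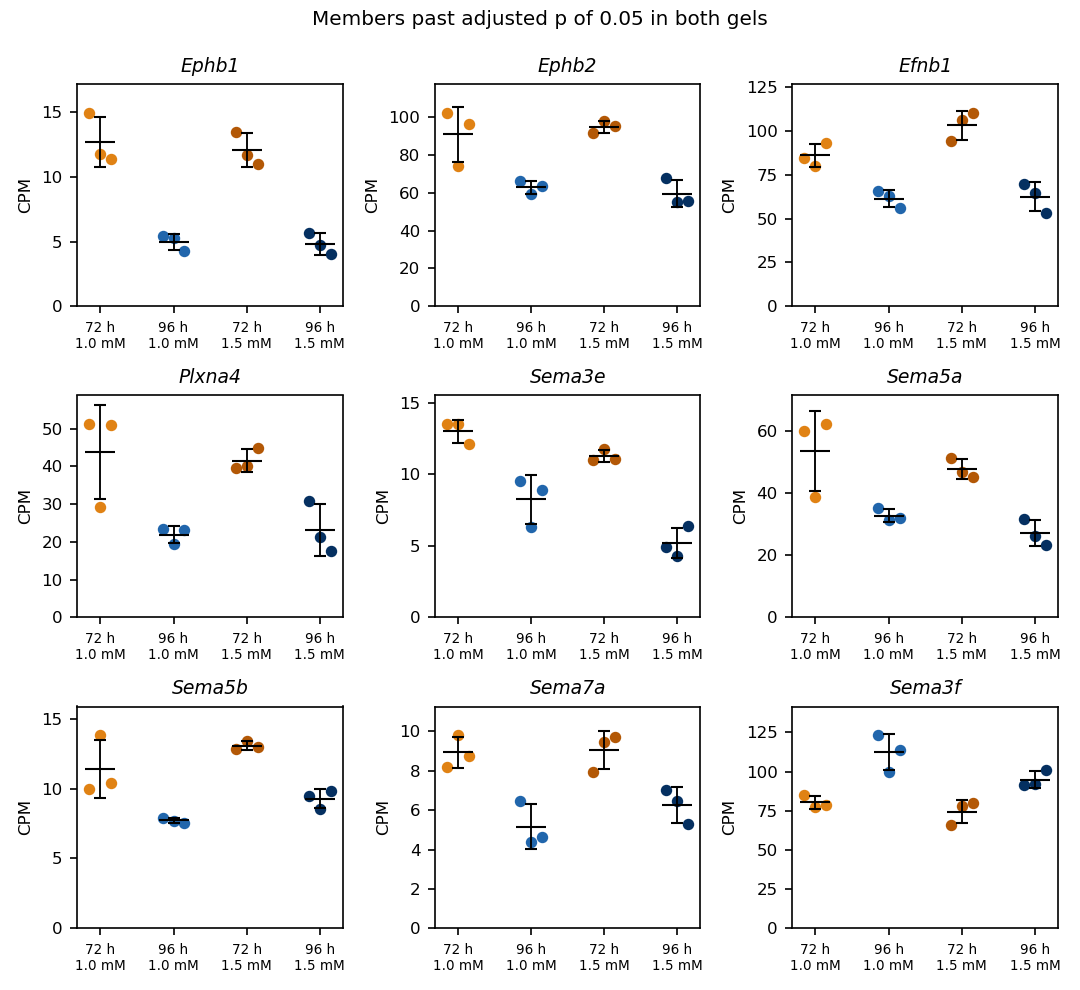
CPM in each of the 12 libraries (points) by embedding time and gel for the 9 genes (members of the families) past an adjusted p of 0.05 in both gels, with the mean (line) and SD (bars, n = 3) of each group. In 8 panels the 72 h libraries of a gel sit above its 96 h libraries, and in the panel of *Sema3f* below them.

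Of the 9 genes past the threshold in both gels, 5 were semaphorins. Of 19 tested, 4 were higher and 1 lower in the 1.0 mM gels with embedding at 72 h, against 5.97% and 3.27% of all genes. In the 1.5 mM gels 6 were higher and 2 lower, against 10.4% and 8.98%. The secreted *Sema3e*, a repulsive cue for vessels and axons (chr5:14025276-14256689, plus strand), gave 13.5, 13.5 and 12.1 CPM after embedding at 72 h against 9.57, 6.3 and 8.89 CPM after 96 h in 1.0 mM gels, and 11.0, 11.8 and 11.1 against 4.91, 4.29 and 6.38 CPM in 1.5 mM gels. All 6 libraries of 72 h lay above all 6 of 96 h, and the 4 lowest were the 3 of 96 h in 1.5 mM gels and replicate 2 of 96 h in 1.0 mM gels. *Sema3e* was 2.17-fold higher in 1.5 mM gels (log2 1.12, SE 0.16, adjusted p = 0.00363) and 1.59-fold higher in 1.0 mM gels (0.67, SE 0.164, adjusted p = 0.0272). Leaving out any of 72 h replicates 1 and 2 or 96 h replicates 2 and 3 took the adjusted p in 1.0 mM gels to between 0.0524 and 0.0888.

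*Sema3f* (chr9:107681500-107710475, minus strand), encoding a repulsive cue read by neuropilin-2, was the gene with the opposite direction among the 9 that passed in both gels. It stood at 84.9, 77.3 and 78.9 CPM after embedding at 72 h against 123, 100 and 114 CPM after 96 h in 1.0 mM gels, and at 65.9, 77.7 and 79.8 against 91.4, 91.8 and 101 CPM in 1.5 mM gels. All 6 libraries of 72 h were below all 6 of 96 h. It was 1.39-fold higher after embedding at 96 h in 1.0 mM gels (log2 −0.48, SE 0.0889, adjusted p = 0.00674) and 1.28-fold higher in 1.5 mM gels (−0.35, SE 0.083, adjusted p = 0.0195). Without 96 h replicate 2 or 3 the adjusted p in 1.5 mM gels was 0.0569 or 0.0819. *Sema3b*, its neighbour on the same strand, had log2 fold changes of 0.34 and 0.25, with adjusted p-values of 0.443 and 0.409.

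The membrane-bound *Sema5a*, *Sema5b* and *Sema7a* were higher after embedding at 72 h in both gels. *Sema5a* (chr15:32244813-32696341, plus strand), one of the semaphorins with thrombospondin repeats, gave 60.0, 38.6 and 62.1 CPM against 35.1, 31.2 and 31.9 CPM in 1.0 mM gels and 51.3, 46.8 and 45.3 against 31.8, 26.3 and 23.4 CPM in 1.5 mM gels. The embedding times did not overlap, and the difference was 1.64-fold (log2 0.72, SE 0.156, adjusted p = 0.0153) and 1.75-fold (0.81, SE 0.111, adjusted p = 0.00312). Without 72 h replicate 3 or 96 h replicate 2 or 3 the adjusted p in 1.0 mM gels was 0.052 to 0.0683. *Sema5b*, its paralogue, was 1.48-fold higher in 1.0 mM gels (adjusted p = 0.0431) and 1.4-fold higher in 1.5 mM gels (adjusted p = 0.0164), at 10.0 to 13.8 CPM after 72 h and 7.57 to 9.81 CPM after 96 h. *Sema7a*, which has a lipid anchor and binds plexin C1 and integrins, was 1.74-fold (adjusted p = 0.0185) and 1.44-fold (adjusted p = 0.041) higher, at 7.95 to 9.8 CPM after 72 h and 4.37 to 7.04 CPM after 96 h. The call of *Sema5b* was lost without 72 h replicate 2 or any library of 96 h in 1.0 mM gels, with adjusted p-values from 0.107 to 0.147, and without 72 h replicate 2 or 3 or 96 h replicate 2 in 1.5 mM gels, from 0.0575 to 0.0709. That of *Sema7a* was lost without 96 h replicate 2 or 3 in 1.0 mM gels (0.082 and 0.0914) and without replicate 2 or 3 of either time in 1.5 mM gels (0.104 to 0.135).

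Other semaphorins passed in 1.5 mM gels alone, and the difference between gels did not pass for any of them. These are named after their values were seen. *Sema3d* was 1.52-fold higher after embedding at 72 h (adjusted p = 0.0429), *Sema6a* 1.18-fold higher (adjusted p = 0.0359) and *Sema4g* 1.32-fold lower (adjusted p = 0.0373). On leaving out each of the 6 libraries in turn, the calls of *Sema3d* and *Sema6a* were lost for 4 of them and that of *Sema4g* for 5, with adjusted p-values from 0.0604 to 0.15. Without both libraries rich in CT010467.1 the adjusted p was 0.0695 for *Sema3d* and 0.0877 for *Sema6a* in 1.5 mM gels, and 0.127 for *Sema3d* in the pooled fit. *Sema4c*, the most expressed semaphorin, had log2 fold changes of −0.26 (SE 0.0942, adjusted p = 0.118) in 1.0 mM gels and −0.06 (SE 0.073, adjusted p = 0.589) in 1.5 mM gels. *Sema3g*, a vessel-associated class 3 gene, passed the filter on low counts only in fits that held all 12 libraries or both groups of 96 h. It had 0.0816 to 0.284 CPM after embedding at 72 h and 0.241 to 0.934 CPM after 96 h, which overlapped, with a fitted log2 fold change of −1.51 (SE 0.374, adjusted p = 0.00711) that rests on 2 to 24 counts. The filter admitted *Sema3g* through its 96 h libraries, where it was higher.

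Among the plexins, *Plxna4* (chr6:32144268-32588192, minus strand), a co-receptor with neuropilins for class 3 semaphorins, was the member that passed in both gels. It gave 51.1, 29.3 and 50.9 CPM after embedding at 72 h against 23.3, 19.3 and 23.0 CPM after 96 h in 1.0 mM gels, and 39.5, 40.1 and 44.9 against 30.8, 21.3 and 17.5 CPM in 1.5 mM gels. Within each gel the times did not overlap, and across gels replicate 2 of 72 h in 1.0 mM gels lay below replicate 1 of 96 h in 1.5 mM gels. *Plxna4* was 2.01-fold higher in 1.0 mM gels (log2 1.01, SE 0.186, adjusted p = 0.00657) and 1.78-fold higher in 1.5 mM gels (0.83, SE 0.173, adjusted p = 0.0121), so that it sat at the threshold of a log2 fold change of 1. In 1.0 mM gels it was 0.88 without 72 h replicate 1 or 3 and 0.93 without 96 h replicate 2, which is no longer DE, and in 1.5 mM gels the adjusted p was 0.0536 without 96 h replicate 2. *Plxna2*, its paralogue, was 1.45-fold higher in 1.5 mM gels (0.54, SE 0.0919, adjusted p = 0.00637) and had 0.31 (SE 0.104, adjusted p = 0.0914) in 1.0 mM gels. The 2 most expressed plexins, *Plxnb2* and *Plxnd1*, had log2 fold changes from −0.17 to −0.08 in the 2 gels, with adjusted p-values from 0.172 to 0.584.

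The 2 neuropilins went in opposite directions. *Nrp1* (chr8:128359284-128503363, plus strand) encodes a co-receptor for SEMA3A and VEGF, and *Nrp2* (chr1:62703285-62818695, plus strand) one for SEMA3F and VEGFC. The 250 bases before each start site (GRCm38.p6, plus strand, RefSeq) are shown to compare the promoters of this pair, at chr8:128358823-128359072 for *Nrp1* and chr1:62703067-62703316 for *Nrp2*, and capitals mark the motifs searched for. For both genes the RefSeq start site differs from the start of the gene coordinates given above. In *Nrp2* a T-box motif on the minus strand starts 239 bases and a TCF/LEF motif on the plus strand 146 bases before the start site, and they do not overlap. *Nrp1* has neither, with 11 CpG sites and a GC content of 64.4% against 32 CpG sites and 72.4% in *Nrp2*.
Nrp1: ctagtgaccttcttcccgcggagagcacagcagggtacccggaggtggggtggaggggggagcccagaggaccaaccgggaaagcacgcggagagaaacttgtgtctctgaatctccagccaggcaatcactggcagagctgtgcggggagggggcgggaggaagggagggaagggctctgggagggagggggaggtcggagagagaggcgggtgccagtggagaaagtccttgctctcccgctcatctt
Nrp2: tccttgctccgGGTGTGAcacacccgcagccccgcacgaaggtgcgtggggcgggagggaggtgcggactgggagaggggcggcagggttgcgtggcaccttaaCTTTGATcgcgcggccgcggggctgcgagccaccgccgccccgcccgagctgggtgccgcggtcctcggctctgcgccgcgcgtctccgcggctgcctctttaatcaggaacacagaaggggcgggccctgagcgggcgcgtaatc

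RefSeq promoters, 250 bases before to 50 after a start site, were matched for 47 of the 53 genes, 61 promoters in all. The TCF/LEF motif was found in 1 of them, that of *Nrp2*, against 3.73% of 32851 promoters of the same length. The T-box motif was found in 4, those of *Efna1*, *Nrp2*, *Sema4a* and *Sema6c*, against 3.98% of all. The 61 promoters had a median GC content of 64.0% and 20 CpG sites, against 52.7% and 7 over all promoters.

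In 1.0 mM gels *Nrp1* stood at 146, 56.0 and 74.1 CPM in replicates 1, 2 and 3 after embedding at 72 h and at 49.0, 44.1 and 32.8 CPM after 96 h. The 1.5 mM gels had 109, 52.3 and 56.6 CPM against 61.7, 41.5 and 40.9 CPM. Replicate 1 of 72 h was far above the other 2 in both gels, and in 1.5 mM gels replicate 1 of 96 h lay above 2 of the 3 libraries of 72 h. Of the 96 h libraries, too, replicate 1 was the highest in both gels. *Nrp1* was 2.2-fold higher in 1.0 mM gels (log2 1.14, SE 0.284, adjusted p = 0.029), and in 1.5 mM gels the log2 fold change was 0.59 (SE 0.269, adjusted p = 0.149). Without 72 h replicate 1 it was 0.64 in 1.0 mM gels (adjusted p = 0.0247), which is no longer DE, and 0.17 in 1.5 mM gels (adjusted p = 0.438). Without 96 h replicate 1, 2 or 3 in 1.0 mM gels the adjusted p was 0.05, 0.0888 or 0.122, and DESeq2 gave 0.113 with all 6 libraries. *Nrp1* in 1.5 mM gels passed under 2 of 19 alternatives, with adjusted p-values from 0.00122 to 0.774 over all of them.

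*Nrp2* gave 61.1, 40.7 and 59.8 CPM after embedding at 72 h and 87.1, 89.6 and 106 CPM after 96 h in 1.0 mM gels, and 54.7, 57.4 and 68.4 against 78.3, 66.3 and 89.2 CPM in 1.5 mM gels. The times did not overlap in 1.0 mM gels and overlapped in 1.5 mM gels through replicate 2 of 96 h. *Nrp2* was 1.74-fold lower after embedding at 72 h in 1.0 mM gels (log2 −0.80, SE 0.142, adjusted p = 0.00524), and in 1.5 mM gels the log2 fold change of −0.38 (SE 0.117) had an adjusted p of 0.0502. That value lies at the threshold, and *Nrp2* passed there under 8 of 19 alternatives, with a range from 0.00212 to 0.305. Among the 8 were DESeq2 (adjusted p = 0.015), upper quartile scaling (0.0374) and edgeR with the replicate number as a block (0.00794). Pooled over both gels the difference of *Nrp2* on the log2 scale was −0.59 (SE 0.115, adjusted p = 0.0015) and that of *Nrp1* was 0.86 (SE 0.234, adjusted p = 0.0118). Without the 2 libraries rich in CT010467.1 *Nrp1* had 0.71 (adjusted p = 0.062) in the pooled fit, and 0.07 (adjusted p = 0.774) in 1.5 mM gels, where *Nrp2* then passed (−0.42, adjusted p = 0.0153).

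The balance of the pair can be read within each library. The log2 ratio of *Nrp1* to *Nrp2* in FPKM was 2.07, 1.23 and 1.1 after embedding at 72 h and −0.04, −0.25 and −0.89 after 96 h in 1.0 mM gels. In 1.5 mM gels it was 1.79, 0.69 and 0.56 against 0.45, 0.09 and −0.34. All 6 libraries of 72 h lay above all 6 of 96 h in this ratio, with the nearest ones in 1.5 mM gels. Markers of cardiac and anterior mesoderm moved with *Nrp1*, and their part in its difference was not tested. The summed level of the 11 markers was 1114, 599 and 677 CPM in replicates 1, 2 and 3 of 72 h and 242, 203 and 90.3 CPM of 96 h in 1.0 mM gels, and 931, 488 and 489 against 382, 369 and 233 CPM in 1.5 mM gels. Replicate 1 of 72 h was the highest in both gels for the marker sum as for *Nrp1*. Among the libraries of 96 h, replicate 1 was likewise the highest in both gels for *Nrp1*, for the ratio and for this marker sum. Replicate 1 of 72 h was also the highest in both gels for the summed endothelium and endoderm markers, and for no other marker list. Its endothelium sum was 381 CPM, against 286 to 361 CPM in the other libraries with 1.0 mM gels. With 1.5 mM gels it was 426 CPM, against 280 to 410 CPM. For endoderm the sums were 821 against 575 to 740 CPM (1.0 mM) and 662 against 466 to 657 CPM (1.5 mM).

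**Figure D4:**
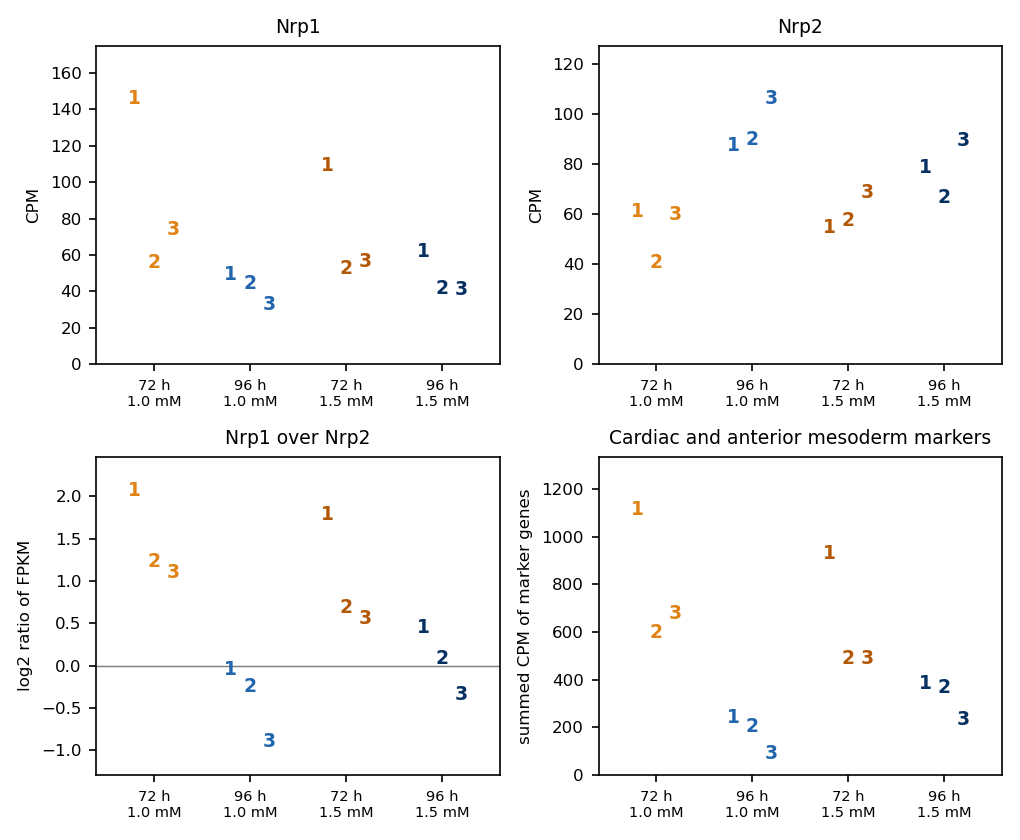
*Nrp1* and *Nrp2* in CPM, the log2 ratio of their FPKM, and the summed CPM of 11 cardiac and anterior mesoderm markers, by embedding time and gel, with each library drawn as its replicate number. Replicate 1 of 72 h is highest for *Nrp1*, for the ratio and for the marker sum in both gels.

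Across both gels, 19 of the 50 genes tested passed an adjusted p of 0.05 for embedding time, 14 higher and 5 lower after 72 h, against 31.1% of 16388 genes, 16.2% higher and 14.8% lower. DE were *Ephb1*, higher, and *Sema3g*, lower, against 4.66% of all genes, 2.36% higher and 2.29% lower. *Sema3g* rests on 2 to 24 counts per library and passed the filter on low counts only in fits that held both groups of 96 h. It was thus tested through the libraries in which it was higher, and its call is not read as a result. With a minimum of 1 CPM in 3 libraries *Ephb1* alone was DE. *Efna3*, an A-class ephrin, and *Sema6b*, a transmembrane semaphorin, passed in this pooled fit and in neither gel alone, with log2 fold changes of 0.32 (SE 0.105, adjusted p = 0.032) and −0.45 (SE 0.133, adjusted p = 0.0189), and they are named after their values were seen. *Efna3* was lost on leaving out any of 7 of the 12 libraries (adjusted p-values from 0.0505 to 0.0744), and *Sema6b* without 96 h, 1.5 mM replicate 3 (0.0509). Without both libraries rich in CT010467.1 they passed in 1.5 mM gels as well, at 0.55 (adjusted p = 0.0289) for *Efna3* and −0.92 (adjusted p = 0.0144) for *Sema6b*. Markers of several cell types differed between the embedding times as well. Across both gels 10 of 11 cardiac and anterior mesoderm markers were DE and higher after embedding at 72 h, whereas 7 of 10 somite markers and 5 of 9 naive pluripotency markers were DE and lower, and 4 of 7 neuron markers tested passed an adjusted p of 0.05 and were higher. In the other lists the numbers higher and lower at that threshold were 2 and 2 of 7 posterior, 1 and 1 of 7 presomitic, 2 and 4 of 8 neural tube, 2 and 3 of 8 neural crest, 3 and 5 of 10 endothelium and 4 and 1 of 10 endoderm markers, and the 1 primitive blood marker tested was higher. In 1.0 mM gels the summed somite markers ran from 223 to 419 CPM after 72 h and from 785 to 918 CPM after 96 h, and the summed neuron markers from 70.4 to 84.2 and from 25.7 to 42.6 CPM. In 1.5 mM gels the sums were 281 to 496 against 620 to 851 CPM for somite and 69.5 to 84.9 against 45.4 to 63.4 CPM for neuron markers. The summed posterior markers were higher after 72 h in each gel, although as many of them passed lower as higher. At 1.0 mM their sum was 304 to 380 against 150 to 209 CPM. At 1.5 mM it was 255 to 302 against 133 to 146 CPM. Most of this sum came from *T*, which encodes Brachyury, with means of 251 against 111 CPM (1.0 mM) and 203 against 75.5 CPM (1.5 mM). The part of these markers in the differences of the guidance genes was not tested.

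Genes that act with or downstream of the receptors were read against the same shares of all genes, 9.24% in 1.0 mM gels, 19.3% in 1.5 mM gels and 31.1% across both. Of 27 Eph and ephrin signalling partners tested, such as Src-family kinases and adaptors, 1 was higher and 1 lower at an adjusted p of 0.05 in 1.0 mM gels, and 2 were higher and 1 lower in 1.5 mM gels, none of them DE, and across both gels 7 were higher and 1 lower. *Inpp5d*, a lipid phosphatase, was lower after embedding at 72 h in both gels, by −0.82 (SE 0.179, adjusted p = 0.0154) and −0.89 (SE 0.164, adjusted p = 0.00799). Of 33 semaphorin and plexin signalling partners, 3 were higher and 1 lower in 1.0 mM gels, 6 higher and 2 lower in 1.5 mM gels, and 10 higher and 3 lower across both. *Met*, a receptor tyrosine kinase that associates with B-class plexins, was lower in both, by −1.13 (SE 0.133, adjusted p = 0.000545) and −0.70 (SE 0.0943, adjusted p = 0.00299). *Dpysl5*, a member of the collapsin response mediator family, was higher in both, by 0.47 (SE 0.0878, adjusted p = 0.00698) and 0.67 (SE 0.0721, adjusted p = 0.00145). These 3 partners are named after their values were seen, since none was DE in both gels.

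Receptors of the Unc5 and Robo families were among the DE genes of the other guidance families. Of 26 Slit, Robo, netrin, Unc5, Rgm and related genes tested, 6 were higher and 7 lower at an adjusted p of 0.05 in 1.0 mM gels, and 5 were DE, named after their values were seen. Over all genes 9.24% passed this threshold in 1.0 mM gels and 4.3% were DE. *Unc5c* and *Unc5b*, netrin receptors, were higher after embedding at 72 h by 2.12 (SE 0.493, adjusted p = 0.0206) and 1.39 (SE 0.239, adjusted p = 0.00441), and *Robo2* and *Robo3*, members of the Roundabout family, by 1.06 (SE 0.173, adjusted p = 0.00344) and 1.12 (SE 0.291, adjusted p = 0.0346). *Ntn5*, a netrin-like gene, was lower by −2.42 (SE 0.364, adjusted p = 0.00222). Its mean after 72 h in 1.0 mM gels was only 0.305 CPM. It did not pass the filter on low counts in the fit of the 72 h groups alone, so it was tested here through its 96 h libraries. In 1.5 mM gels 8 were higher and 3 lower, with *Slit1* (1.02, SE 0.208, adjusted p = 0.0112) and *Robo4* (−1.38, SE 0.222, adjusted p = 0.00511) DE. There *Unc5c* had 1.12 (adjusted p = 0.099) and *Unc5b* 0.74 (adjusted p = 0.0585). Over all genes 19.3% passed in 1.5 mM gels and 3.18% were DE. Across both gels 9 of 27 tested were higher and 8 lower, against 31.1% of all genes. Of these, 3 were DE and higher and 2 DE and lower, against 4.66% of all genes. The median log2 fold changes of the 3 lists were 0.03, 0.13 and 0.12 in 1.0 mM gels and 0.10, 0.02 and 0.34 in 1.5 mM gels, against −0.01 over all genes.

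Gel concentration was compared as 1.5 mM over 1.0 mM gels, in which *Epha5*, *Epha6* and *Plxnb3* entered no fit. No gene passed an adjusted p of 0.05 in edgeR's test after embedding at 72 h (48 tested), after 96 h (50 tested) or across both times (50 tested), against 0%, 0% and 0.0305% of all genes. An unadjusted p below 0.05 was found for 2, 8 and 7 of them, against 6.9%, 9.95% and 12.7% of all genes. DESeq2 and limma-voom called none of them, whereas with no filter on low counts *Plxnb1* passed after 72 h, *Nrp2* and *Sema3e* after 96 h, and *Plxnb1* and *Sema3e* across both times. A fit with the replicate number as a block gave *Nrp2* and *Sema3e* after 96 h as well. Whether same-numbered replicates were made together is not given in the sources used here. Among the 39 genes with a mean FPKM of at least 1, the log2 fold changes of 1.5 mM over 1.0 mM ran from −0.34 to 0.37 after 72 h, with a median SE of 0.128, and from −0.67 to 0.41 after 96 h, with a median SE of 0.101.

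**Figure D5:**
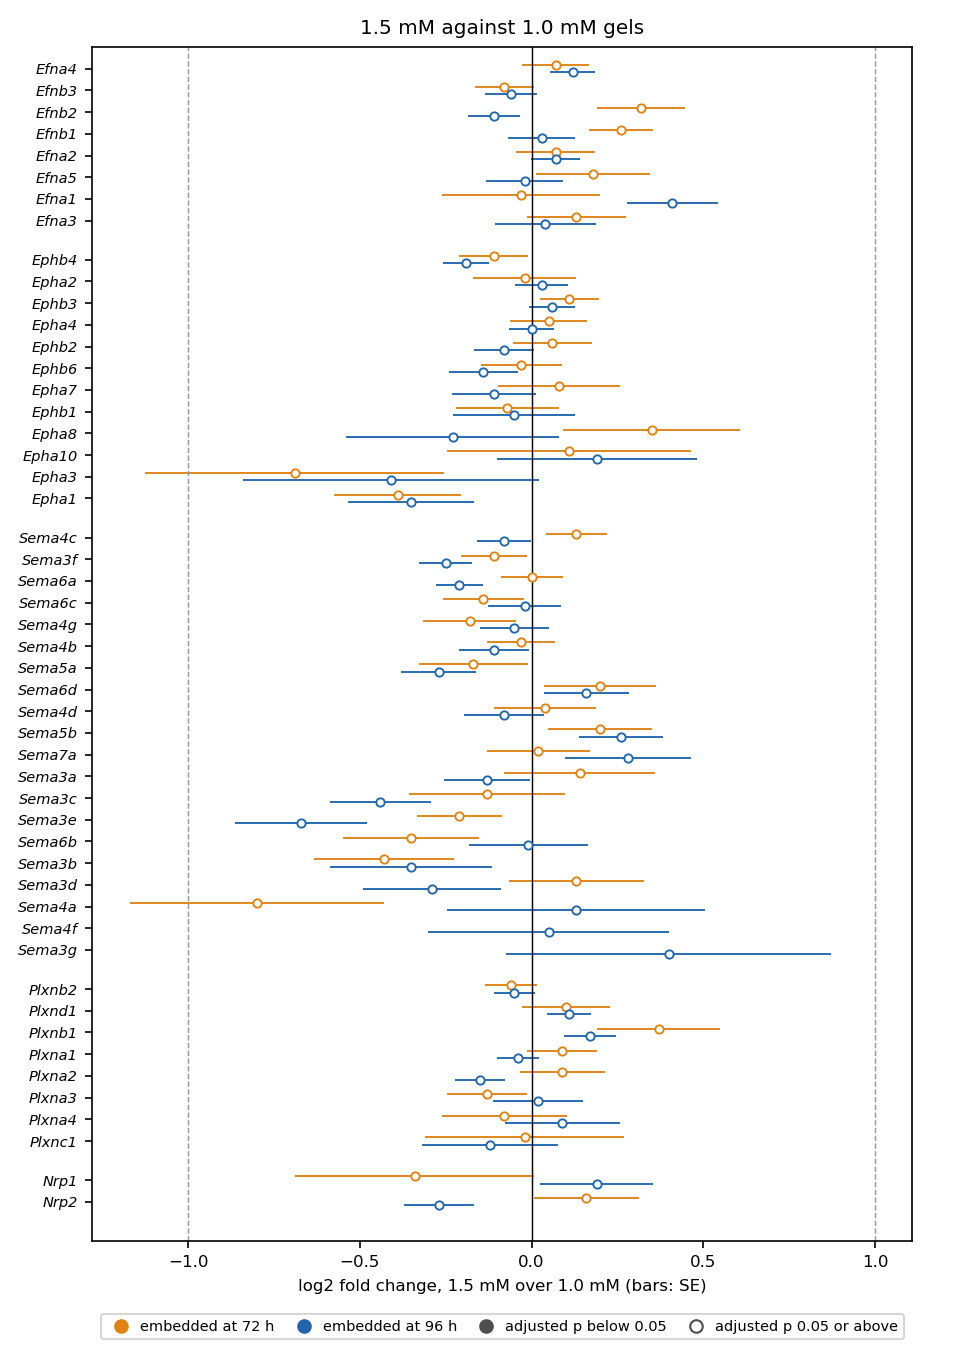
Log2 fold change of 1.5 mM over 1.0 mM gels for each gene tested (rows), after embedding at 72 h (orange) and 96 h (blue), with bars for the SE and dashed lines at a log2 fold change of 1. No point is filled, since no gene passed an adjusted p of 0.05, and *Sema3e* after 96 h lies at −0.67.

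The smallest p-values of the gel comparisons named different genes at the 2 times. After 72 h they were those of *Efnb1* (log2 0.26, SE 0.0934, unadjusted p = 0.0179), *Efnb2* (0.32, SE 0.128, unadjusted p = 0.0299) and *Sema4a* (−0.80, SE 0.37, unadjusted p = 0.0553), with adjusted p-values of 0.698, 0.698 and 0.704. After 96 h they were those of *Sema3e* (−0.67, SE 0.192, unadjusted p = 0.00452), *Sema3f* (−0.25, SE 0.0762, unadjusted p = 0.00679) and *Efna1* (0.41, SE 0.132, unadjusted p = 0.00905), with adjusted p-values of 0.303, 0.316 and 0.338. Over both times *Sema3e* (−0.43, SE 0.128), *Epha1* (−0.37, SE 0.126) and *Sema3f* (−0.18, SE 0.0636) had the smallest, with adjusted p-values of 0.197, 0.249 and 0.268. *Sema3e* in 96 h libraries stood at 9.57, 6.3 and 8.89 CPM in 1.0 mM gels and at 4.91, 4.29 and 6.38 CPM in 1.5 mM gels, which overlap between replicate 2 of the former and replicate 3 of the latter.

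The interaction, the difference of the embedding effect between the gels, passed for no gene (50 tested, 0% of all genes), with 1 of 50 at an unadjusted p below 0.05 against 4.32% of all genes. After *Efnb2*, the smallest p-values of edgeR's test were those of *Nrp2* (0.43, SE 0.207, unadjusted 0.0556) and *Sema3e* (0.46, SE 0.236, unadjusted 0.07), with an adjusted p of 0.953 for both. The effects of embedding time are therefore not shown to differ between the gels for any of these genes, with a median SE of 0.178 over the 39 genes of a mean FPKM of at least 1.

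Some of the genes lie close together in the genome. *Efna1*, *Efna3* and *Efna4* lie on chr3 between positions 89271733 and 89338028, and none of them passed in either gel, while their levels ran from 4.56 to 32.3 FPKM. *Sema3a*, *Sema3c*, *Sema3d* and *Sema3e* lie on chr5 between 12383385 and 17730268. *Sema3e* passed in both gels and *Sema3d* in 1.5 mM gels, while *Sema3a* had log2 fold changes of −0.47 (adjusted p = 0.118) and −0.21 (adjusted p = 0.449) and *Sema3c* of −0.19 (adjusted p = 0.652) and 0.11 (adjusted p = 0.653) in the 1.0 mM and the 1.5 mM gels.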

How the data were processed

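Poly-A RNA of 12 libraries was sequenced as stranded, paired-end 75 bp reads. The authors trimmed reads with cutadapt 4.4 and aligned them to mm10 with STAR 2.7.10b and a modified Ensembl gene annotation. They deposited a table of raw counts per gene, named for HTSeq, whose strand setting is not given in the sources used here, and a table of FPKM made with Cufflinks 2.2.1.3 with mitochondrial transcripts masked. A deposited table of DESeq2 comparisons with log2 fold changes and p-values was not used.

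Genes were chosen by symbol, and these genes, the gene lists and the tests were chosen with earlier results of these data known. Counts were tested with edgeR 4.0.16 (quasi-likelihood, TMM scaling) in R 4.3.3 after leaving out 36 mitochondrial genes and filtering low counts (filterByExpr, minimum count 10, total 15), with only the groups compared in each fit and all 12 libraries in the pooled fits and the interaction. P-values were adjusted by the Benjamini-Hochberg method over all genes. The SE given with edgeR's values is the absolute log2 fold change divided by the square root of the F statistic of its test. Samples were grouped by the embedding time and gel concentration of their labels. Per the study's methods the replicates are biological, and whether same-numbered replicates of different groups were made together is not given in the sources used here. The edgeR, DESeq2 and limma-voom fits of embedding time in 1.0 mM gels were checked on simulated data with log2 fold changes of 1.5 and 3. Smaller fold changes and the other comparisons were not simulated.

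The genes named were those DE in any fit, the 2 most expressed of each family, those past an adjusted p of 0.05 in both gels, the 3 with the smallest p in each gel comparison and the interaction, and those removed by the filter throughout. Alternatives were DESeq2 1.42.0, limma-voom and limma 3.58.1 on log2(FPKM + 1) or log2(FPKM + 0.1), RLE and upper quartile scaling, other filters, mitochondrial genes kept, a stricter adjusted p, a replicate block, 1 fit of all libraries and leaving out each library. Coordinates are from the Cufflinks table, counted from 1, and promoters from RefSeq. For a gene with more than 1 promoter, the first by position was printed.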

Additional observations from a re-analysis of the deposited data

How the results depend on the processing

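The number of genes past an adjusted p of 0.05 in 1.0 mM gels, 1.5 mM gels and both pooled was 11, 15 and 19, and at an adjusted p of 0.01 it was 5, 6 and 12. With limma on log2(FPKM + 1) it was 1 (*Ephb1*) in 1.0 mM and 3 (*Ephb1*, *Sema3e* and *Sema5a*) in 1.5 mM gels, and no gene was DE in any of the 3 comparisons. With limma on log2(FPKM + 0.1) it was 0 in 1.0 mM and 1 in 1.5 mM gels, and the number DE was 0 in 1.0 mM gels, 1 in 1.5 mM gels and 1 pooled, each time *Ephb1*. A minimum of 1 CPM in 3 libraries, which removes *Sema3g*, left 1 gene DE in the pooled fit. With no low-count filter 1 gene (*Plxnb1*) passed for gel at 72 h, 2 (*Nrp2* and *Sema3e*) at 96 h, 2 (*Plxnb1* and *Sema3e*) across times and 1 (*Nrp1*) for the interaction, and the cause was not tested. Leaving out each library in turn gave 1 to 3 DE genes in 1.0 mM gels, 1 to 4 in 1.5 mM gels and 2 to 3 pooled, and 5 to 11, 7 to 20 and 15 to 22 at any fold. The lowest counts in 1.0 mM gels came without 96 h replicate 2, equally without 96 h replicate 3 at any fold and without 72 h replicate 1 for DE. Those in 1.5 mM gels came without 96 h replicate 2, while at any fold 9, 9 and 8 genes passed without 72 h replicate 2, 72 h replicate 3 and 96 h replicate 3, and 4 were DE without 96 h replicate 1.

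Same-numbered replicates correlated in their deviations from the group means at 0.0365 to 0.313, above 0.1 in 13 of 18 pairs, and different numbers at −0.262 to 0.111 over 16388 genes, and since not every pair exceeded 0.1 the numbers were not taken to pair the samples. On average over the other groups, all 12 libraries correlated best with their own number, a hint from the data and not the design. The fit with the replicate number as a block gave 2 genes for gel at 96 h (*Nrp2* and *Sema3e*) in place of 0, and changed no other count by over 1.5 times. With the block 8 results on single genes gained a call and 0 lost one, among them *Nrp1* (0.54, adjusted p = 0.00528) and *Nrp2* (−0.38, adjusted p = 0.00794) in 1.5 mM gels.

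Signs reversed only for values near 0 that passed no test. In 1.0 mM gels *Efna4* had 0.13 and 0.14 and *Efnb2* −0.02 and −0.02 with limma on FPKM, and *Efnb3* 0.00 with no filter. On leaving out each library, *Efnb2* ran from −0.12 to 0.10, *Efnb3* from −0.05 to 0.07 and *Sema6a* from −0.03 to 0.09 in 1.0 mM gels, *Efnb3* from −0.09 to 0.04 and *Sema4c* from −0.13 to 0.00 in 1.5 mM gels, and *Efnb3* from −0.04 to 0.02 pooled. Of 1609 values for 79 results on single genes, 1365 kept direction and side of the threshold, 185 lost it, 42 gained it and 17 reversed. Depth limits *Sema3g*, *Sema4a* and *Sema4f*, at 2 to 25 counts per library.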

Other observations

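Exons of 14 of the 53 genes overlap those of another gene, 11 on the opposite strand. Beside *Epha1* and *Zyx*, the overlapping genes on the opposite strand had low counts where they were measured. *Sema4c* (mean 156 CPM) shares 334 bases with *D430040D24Rik* (8.21 CPM), *Plxnb1* (134 CPM) shares 257 bases with *Gm7628* (4.59 CPM) and *Efna4* (59.0 CPM) shares 168 bases with *4731419I09Rik* (3.43 CPM). *Plxna4* (32.6 CPM) shares 110 bases with *Plxna4os3*, which had 0 CPM. *Ephb1* shares 152 bases with *Gm26846*, for which no value was found. How reads in the shared bases were assigned was not tested.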
